A study of Mus musculus with 30 samples.

Results

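The genes described here were 10 genes of insulin signalling and glucose transport, chosen by name: the insulin receptor Insr, its adaptors Irs1 and Irs2, the PI3K regulatory subunit Pik3r1, the kinases Akt1 and Akt2, the transcription factor Foxo1, the glucose transporters Slc2a4 and Slc2a1, and the phosphodiesterase Pde3b. All 10 were found among the 54232 genes of the count table, and all 10 were among the 20139 genes with more than 14 counts over the 30 RNA-seq libraries. The libraries came from cultures of 3T3-L1, a mouse preadipocyte line that had been grown to confluence and then kept in an adipogenic medium containing insulin, dexamethasone, isobutylmethylxanthine and indomethacin. There were 6 groups of 5 libraries. The Control group received none of the 3 agents, the pNaKtide group received pNaKtide at 0.7 µM, the IS group received indoxyl sulfate (IS) at 100 µM, and the oxLDL group received oxidized low density lipoprotein (oxLDL) at 50 µg/mL. The IS + pNaKtide and oxLDL + pNaKtide groups received IS or oxLDL together with pNaKtide at the same concentrations. Indoxyl sulfate is a uremic toxin, oxLDL is a pro-oxidant lipoprotein, and pNaKtide is a cell-permeable peptide that blocks signalling through the Na,K-ATPase and Src. The labels gave 5 days of treatment, whereas the description of the culture gave a shorter one, and nothing said whether the 5 libraries of a group came from separate cultures, so that the p-values measure the spread between these libraries only. Because the medium itself held insulin and an inhibitor of phosphodiesterases, all 6 groups share that stimulus.

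Insulin binds its receptor at the adipocyte surface, and the receptor phosphorylates the adaptors IRS1 and IRS2, which recruit PI3K through its regulatory subunit p85α, the main product of Pik3r1. The lipid that PI3K makes activates AKT, whose isoform AKT2 is known for driving vesicles with GLUT4, the product of Slc2a4, to the plasma membrane, while GLUT1, the product of Slc2a1, carries glucose without insulin. AKT also keeps FOXO1 out of the nucleus, and in fat cells the phosphodiesterase PDE3B, which lies downstream of AKT, lowers cAMP and so restrains lipolysis.

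The cells carried the transcripts of adipocytes. All 10 adipocyte markers listed (Adipoq, Fabp4, Plin1, Lpl, Cidec, Cebpa, Pparg, Lep, Cfd and Retn) were detected, Lep with only 76 counts over the 30 libraries, and their summed level ranged from 10765 to 18061 CPM (the counts of a gene scaled to a fixed library total after TMM scaling). Of the 8 markers of preadipocytes and fibroblasts, Dlk1, Pdgfra, Thy1, Col1a1, Col3a1 and Ly6a were detected, while Cd34 had 74 counts and Dpp4 15 over the 30 libraries, and the 8 summed to levels from 2806 to 5783 CPM. Of 5 macrophage markers, Ptprc and Itgam had no count in any library and the sum of the others was at most 7.56 CPM, while the sums of the endothelial and muscle markers were at most 0.613 and 2.42 CPM. The medians of both sums differed between groups. The median of the adipocyte sum was 15534 CPM in Control, 15717 CPM with pNaKtide, 12320 CPM with IS, 12855 CPM with IS + pNaKtide, 13503 CPM with oxLDL and 16306 CPM with oxLDL + pNaKtide, and that of the preadipocyte and fibroblast markers was 5237 CPM in Control, 3622 CPM with pNaKtide, 3148 CPM with IS, 3362 CPM with IS + pNaKtide, 4263 CPM with oxLDL and 4266 CPM with oxLDL + pNaKtide. Both sums rest mostly on abundant genes such as Cidec and Lpl or Col1a1 and Col3a1. With oxLDL 0 of the 10 adipocyte markers rose and 3 fell, with IS 0 rose and 4 fell, and with oxLDL + pNaKtide against oxLDL 5 rose and 0 fell (edgeR, threshold on the adjusted p 0.1; 36%, 7.94% and 48.3% of all genes were called in either direction). With a trend over GC content and transcript length, described next, taken out of every library the counts were 0 and 1, 0 and 4, and 5 and 0 (20.8%, 5.19% and 36.5% of all genes). Of the preadipocyte and fibroblast markers 0 rose and 2 fell with oxLDL, 0 rose and 3 fell with IS, and 2 rose and 1 fell with oxLDL + pNaKtide against oxLDL. With the trend taken out these counts were 0 and 0, 0 and 3, and 3 and 1. Mean levels of Lpl (4113 against 3874 CPM), Fabp4 (2622 against 2312 CPM) and Pdgfra (137 against 116 CPM) were nominally higher with oxLDL than in Control. The part of either sum in the changes below was not tested. In bulk libraries, fewer cells of one type and less RNA in each cell cannot be told apart.

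Libraries differed in depth and in a trend along the GC content of the transcripts. Total counts ranged from 6945498 to 15159877, with a median of 11524210. Among genes with a positive mean log2 CPM, the median log2 deviation of 2896 genes with more than 55% GC in the longest transcript was taken in each library. That of 3482 genes with less than 45% was subtracted from it, and the difference is called the GC tilt below. Its group medians were 0.42 in Control, 0.38 with pNaKtide, -0.42 with IS, -0.19 with IS + pNaKtide, -0.54 with oxLDL and 0.27 with oxLDL + pNaKtide. The library of Control replicate 1 had a tilt of -0.32, below the other 4 Control libraries, and IS replicate 4 had a tilt of 0.45, above the other 4 IS libraries. On the first principal component of all libraries, the library labelled Control replicate 1 (-24.2) lay within the range of the other 4 IS libraries (-33.9 to -21.3), and the library labelled IS replicate 4 (26.4) lay within that of the other 4 Control libraries (5.87 to 27.7). Both stood apart from the libraries that share their label, and whether the labels of the pair were exchanged was not tested. Among the 10 genes, Pik3r1 (261 CPM in Control replicate 1 and 136 CPM in IS replicate 4), Akt2 (262 and 327 CPM) and Pde3b (30.2 and 17.0 CPM) ran with that component. Not all of the 10 did. Irs2 was highest of the controls in Control replicate 1 (138 CPM) and within the IS band in IS replicate 4 (98.1 CPM), as labelled, and Slc2a1 in IS replicate 4 (113 CPM) was close to the other IS libraries, while in Control replicate 1 (101 CPM) it was far below the other controls. Both libraries were kept as labelled, and every IS and Control comparison rests on that. The library of oxLDL + pNaKtide replicate 4, which was also the shallowest, had the highest tilt of all at 1.03. Since the tilt moved with the groups, each fold change below was also computed after the trend over GC content and transcript length had been taken out of every library, and results that rest on Control replicate 1 or IS replicate 4 were computed without them. Without the pair, the genes called with IS over the whole table numbered 9140 in place of 1599.

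**Figure D1:**
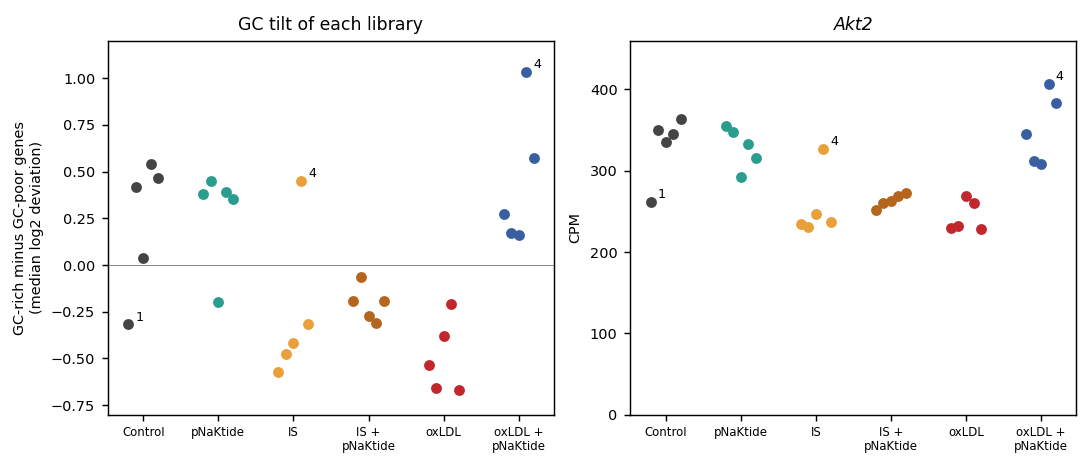
Left, the GC tilt of each of the 30 libraries by group (median log2 deviation of GC-rich genes minus that of GC-poor genes, 5 points per group, replicates 1 to 5 from left to right, with 3 libraries marked by their replicate number). Right, the level of Akt2 in the same libraries in CPM, where Control replicate 1 at 262 CPM lies below the other controls and IS replicate 4 at 327 CPM lies above the other IS libraries.

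The levels of the 10 genes spanned a wide range. On the FPKM scale of the deposited table (fragments scaled to transcript length and library size), which allows levels to be compared between genes, the order in Control was Akt1 at 82.8 ± 9.69, Akt2 at 45.9 ± 5.498, Slc2a1 at 44.05 ± 8.85, Irs2 at 19.3 ± 1.43, Pik3r1 at 15.1 ± 5.94, Slc2a4 at 12.3 ± 1.63, Insr at 5.97 ± 1.93, Foxo1 at 5.83 ± 0.565, Irs1 at 5.13 ± 1.44 and Pde3b at 2.26 ± 0.633 FPKM (mean ± SD, n = 5 libraries each). The ranges of Akt2 (36.4 to 50.2) and Slc2a1 (28.7 to 50.7) overlapped, as did those of Irs2 (17.98 to 21.6) with Pik3r1 (12.1 to 25.7), of Pik3r1 with Slc2a4 (9.99 to 14.1), and of Insr, Foxo1 and Irs1 with each other. Akt1 (70.1 to 93.6) stood clear of Akt2, and Pde3b (1.604 to 3.28) stood clear of Irs1 (4.15 to 7.66). The insulin-independent transporter was the more abundant of the pair, with Slc2a1 over Slc2a4 at 3.56 ± 0.514 in Control, and the ratio was 1.81 ± 0.141 for Akt1 over Akt2 and 3.897 ± 0.636 for Irs2 over Irs1 (FPKM ratios, n = 5).

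The genes are all annotated as protein-coding, and their spans on GRCm38 (start and end of the whole gene in the GENCODE annotation, exons and introns together) were chr8:3122061-3279617 on the minus strand for Insr (ENSMUSG00000005534), chr1:82233101-82291416 on the minus strand for Irs1 (ENSMUSG00000055980), chr8:10984681-11008458 on the minus strand for Irs2 (ENSMUSG00000038894), chr13:101680563-101768217 on the minus strand for Pik3r1 (ENSMUSG00000041417), chr12:112653821-112674884 on the minus strand for Akt1 (ENSMUSG00000001729), chr7:27591552-27640826 on the plus strand for Akt2 (ENSMUSG00000004056), chr3:52268336-52353221 on the plus strand for Foxo1 (ENSMUSG00000044167), chr11:69942539-69948188 on the minus strand for Slc2a4 (ENSMUSG00000018566), chr4:119108711-119137983 on the plus strand for Slc2a1 (ENSMUSG00000028645) and chr7:114415281-114539251 on the plus strand for Pde3b (ENSMUSG00000030671). The counts were given per gene, so no isoform can be told from another.

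The promoters of 4 genes are shown because their changes kept their call after the GC and length trend was taken out, Pik3r1, Akt2 and Slc2a1 with oxLDL and Irs1 with oxLDL + pNaKtide against oxLDL. Akt2 and Slc2a4 also kept theirs in that last comparison. The sequences are the 250 bases before the start of the gene in RefSeq on GRCm38.p6, 5′ to 3′ on the strand of the gene. Irs1 lies on the minus strand at chr1:82291440-82291689, Pik3r1 on the minus strand at chr13:101768218-101768467, Akt2 on the plus strand at chr7:27591302-27591551 and Slc2a1 on the plus strand at chr4:119108495-119108744. Capitals mark matches to any of 4 motifs searched on both strands, the GC box GGGCGG, the CCAAT box CCAAT, the E-box CACGTG and the TATA box TATAAA.
Irs1: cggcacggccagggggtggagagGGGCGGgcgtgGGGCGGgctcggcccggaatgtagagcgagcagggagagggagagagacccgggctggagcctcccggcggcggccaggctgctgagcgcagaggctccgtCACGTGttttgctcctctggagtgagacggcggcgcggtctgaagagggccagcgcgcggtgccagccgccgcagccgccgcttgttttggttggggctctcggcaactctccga
Pik3r1: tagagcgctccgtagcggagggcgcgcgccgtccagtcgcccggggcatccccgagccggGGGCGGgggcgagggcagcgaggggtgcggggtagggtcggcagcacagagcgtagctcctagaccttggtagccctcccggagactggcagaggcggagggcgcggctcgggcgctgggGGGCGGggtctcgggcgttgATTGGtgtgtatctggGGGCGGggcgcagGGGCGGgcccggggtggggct
Akt2: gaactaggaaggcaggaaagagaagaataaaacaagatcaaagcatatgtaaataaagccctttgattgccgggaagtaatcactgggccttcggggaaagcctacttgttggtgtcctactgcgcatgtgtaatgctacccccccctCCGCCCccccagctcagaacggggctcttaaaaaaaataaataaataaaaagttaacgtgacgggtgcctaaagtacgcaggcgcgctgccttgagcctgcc
Slc2a1: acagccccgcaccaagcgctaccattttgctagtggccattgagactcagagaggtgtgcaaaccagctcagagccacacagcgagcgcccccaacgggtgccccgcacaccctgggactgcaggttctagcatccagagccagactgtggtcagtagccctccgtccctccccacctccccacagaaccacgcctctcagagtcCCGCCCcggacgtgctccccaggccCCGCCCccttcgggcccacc
The Pik3r1 window held 4 GC boxes and 1 CCAAT box, that of Irs1 held 2 GC boxes and 1 E-box, that of Slc2a1 held 2 GC boxes, and that of Akt2 held 1. None of these 4 windows held the letters of the TATA box. Among 32851 RefSeq promoter windows of the same length, 32.7% held a GC box, 33.8% a CCAAT box, 6.02% an E-box and 12.4% a TATA box. The GC content of the window was 76.4% for Pik3r1, 72.4% for Irs1, 66.4% for Slc2a1 and 48.8% for Akt2, against a median of 52.4% over all windows, so that the rising Pik3r1 and the falling Slc2a1 both had GC-rich windows and the falling Akt2 did not. RefSeq windows were found for 7 of the 10 genes, and Insr, Slc2a4 and Pde3b were without one.

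Treatment with oxLDL changed 5 of the 10 genes, raising Pik3r1 and Pde3b and lowering Akt1, Akt2 and Slc2a1 (adjusted p under 0.1 in edgeR's quasi-likelihood test with Benjamini-Hochberg adjustment over all genes tested, the rule for every call below). Over all genes tested, 36% were called in the same comparison, 18.1% higher and 18% lower. No gene of the 10 had oxLDL and Control libraries without overlap, against 8.35% of all genes. The median log2 fold change was -0.00 over the 10 genes and 0.04 over all genes. Treatment with IS lowered Akt2 and Slc2a1 and no other of the 10 passed, where 7.94% of all genes were called, 4.45% higher and 3.49% lower. Without Control replicate 1 the oxLDL calls numbered 8, where 45.9% of all genes were called. The IS calls numbered 5 without that library (33.2% of all genes), 6 without IS replicate 4 (34.5%) and 8 without both (45.4%), so that the calls among the 10 rose together with those of the whole table. Without any other single library of these groups the IS calls numbered 1 or 0, and between 0.0745% and 1.51% of all genes were called. When only the IS and Control libraries were fitted, no gene of the whole table passed the threshold with IS, although 3465 had an unadjusted p under 0.05 in edgeR.

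Adding pNaKtide to oxLDL changed 8 of the 10 genes, 4 upward (Akt1, Akt2, Slc2a4 and Slc2a1) and 4 downward (Insr, Irs1, Pik3r1 and Pde3b). That comparison called 48.3% of all genes tested, 22.1% higher and 26.1% lower. The 5 oxLDL and the 5 oxLDL + pNaKtide libraries did not overlap for 5 of the 10 genes, namely Irs1, Pik3r1, Akt1, Akt2 and Slc2a4, where the share over all genes was 28.4%. Without oxLDL + pNaKtide replicate 4 the count of called genes among the 10 was 5, where 41.4% of all genes were called. Adding pNaKtide to IS changed 0 of the 10 by the same test, in a comparison that called 0% of all genes in edgeR (0 of 20139, with 564, or 2.8%, at an unadjusted p under 0.05) and 14 genes in DESeq2. pNaKtide alone against Control also changed 0 of the 10 (0.00497% of all genes called, with 1233, or 6.12%, at an unadjusted p under 0.05 in edgeR, and 57 called by DESeq2), and the log2 fold changes of the 10 genes lay between -0.17 and 0.08.

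**Figure D2:**
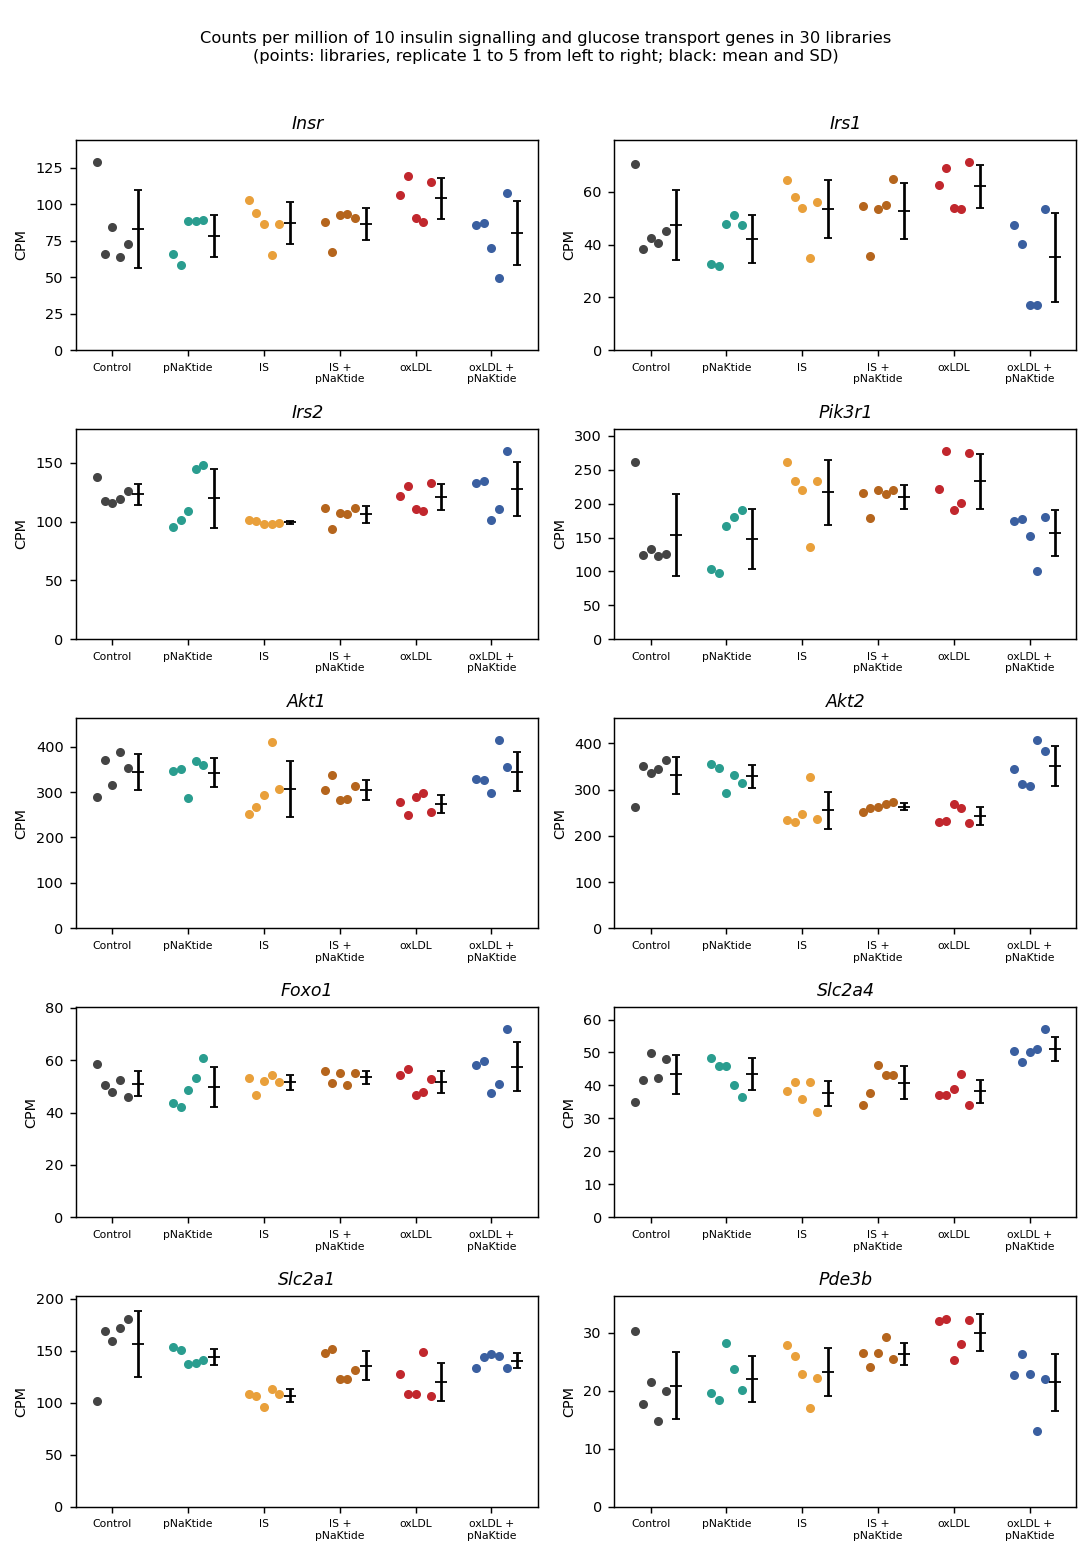
Levels of the 10 genes in the 30 libraries, 1 panel per gene with CPM on a linear axis from 0, the 6 groups along the horizontal axis, 1 point per library (replicates 1 to 5 from left to right) and the mean with SD in black. Akt2 lies between 229 and 269 CPM in the oxLDL libraries and between 308 and 407 CPM with oxLDL + pNaKtide, and Slc2a1 is lower in the 5 IS libraries than in the 5 IS + pNaKtide libraries.

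Insr, which encodes the insulin receptor, was nominally highest with oxLDL. Its levels were 129, 65.6, 84.04, 63.9 and 72.9 CPM in Control and 106, 119, 90.7, 87.7 and 115 CPM with oxLDL, in the order of replicates 1 to 5. Control replicate 1 was the highest of all 30 libraries, so that the groups overlapped, and the log2 fold change of 0.32 ± 0.18 (± SE) missed the threshold (adjusted p = 0.179, edgeR quasi-likelihood test). Without Control replicate 1 the log2 fold change was 0.54 and the adjusted p was 0.00996 in the same edgeR test. With oxLDL + pNaKtide the levels were 85.7, 87.3, 70.01, 49.3 and 108 CPM, and the fall against oxLDL was -0.37 ± 0.18 with an adjusted p of 0.0944 (edgeR), close to the threshold. It passed in 3 of the 10 fits without 1 library. That direction turned once the GC and length trend was taken out, with a log2 fold change of 0.07 ± 0.08 and an adjusted p of 0.501. In the IS, IS + pNaKtide and pNaKtide groups the levels of Insr ranged over 64.9 to 103, 67.02 to 92.9 and 58.6 to 88.8 CPM, within the Control range of 63.9 to 129 apart from the lowest pNaKtide library. Without Control replicate 1 and IS replicate 4 together, Insr passed with IS (0.37, adjusted p = 0.0737, edgeR).

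Irs1, the adaptor best known for carrying the insulin signal in fat and muscle, fell when pNaKtide was added to oxLDL, and this was the largest change among the 10 genes on the log2 scale. Its levels were 62.6, 68.9, 53.98, 53.7 and 71.3 CPM with oxLDL and 47.5, 40.3, 17.2, 17.2 and 53.4 CPM with oxLDL + pNaKtide. The 5 libraries with pNaKtide were spread over a range of 17.2 to 53.4 CPM, with replicates 3 and 4 lowest, and all 5 lay below the lowest oxLDL library, though only just for replicate 5. The log2 fold change was -0.82 ± 0.24 (adjusted p = 0.00716, edgeR), and it was -0.61 ± 0.16 with the trend taken out (adjusted p = 0.00522). Leaving out single libraries of these groups moved it between -1.01 and -0.64, and it passed the threshold each time. Against Control (70.6, 38.3, 42.5, 40.7 and 45.3 CPM), oxLDL + pNaKtide gave -0.43 ± 0.24 with an adjusted p of 0.377 in edgeR, and oxLDL gave 0.39 ± 0.24 with an adjusted p of 0.232. The oxLDL difference passed without Control replicate 1, the highest control (0.58, adjusted p = 0.0616), and when only the oxLDL and Control groups were fitted (0.38, adjusted p = 0.0676). With IS the levels were 64.7, 58.1, 53.8, 35.04 and 56.1 CPM, and Irs1 did not pass the threshold (0.17 ± 0.24, adjusted p = 0.673, edgeR). The exons of Irs1 share 2822 bases with Gm9747 on the opposite strand, a gene that had 0 counts in every library, and the strand setting of the counting is not given in the sources used here.

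Irs2, the second adaptor, showed another pattern, with its lowest levels under IS. Its levels in Control were 138, 118, 116, 119.5 and 126 CPM, while with IS they were 101, 101, 98.4, 98.1 and 99.2 CPM, so that the 5 IS libraries lay within a narrow band below all 5 controls. The log2 fold change was -0.31 ± 0.11, and its adjusted p of 0.101 in edgeR lay at the threshold without passing it. Over all genes tested, 1.81% showed no overlap in this comparison. With the trend taken out the difference was -0.21 ± 0.07 and passed (adjusted p = 0.0862, edgeR), as it did in 8 of the 12 alternatives tried and without Control replicate 1 or IS replicate 4. The IS + pNaKtide libraries, at 112, 93.98, 108, 106 and 111 CPM, also lay below every control (-0.22 ± 0.11, adjusted p = 0.264, edgeR). In that comparison 3.79% of all genes showed no overlap. With oxLDL Irs2 stood at 122, 131, 111, 109 and 133 CPM, above every IS library (1.49% of all genes had groups without overlap, in either direction), and oxLDL and IS differed by 0.28 ± 0.11 on the log2 scale (unadjusted p = 0.0143, adjusted p = 0.856, edgeR), a difference that passed with the trend taken out (0.30 ± 0.07, adjusted p = 0.0657; 0.109% of all genes). In the pNaKtide group the levels split, with replicates 1 to 3 at 95.4, 101 and 109 CPM and replicates 4 and 5 at 145 and 148 CPM.

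The balance of the adaptors is given as a description, with no test. The FPKM ratio of Irs2 over Irs1 was 3.897 ± 0.636 in Control, 4.15 ± 0.524 with pNaKtide, 2.80 ± 0.709 with IS, 2.99 ± 0.488 with IS + pNaKtide and 2.84 ± 0.122 with oxLDL (mean ± SD, n = 5). The Control libraries (2.82 to 4.45) overlapped those of IS (2.27 to 4.05). With oxLDL + pNaKtide it was 6.21 ± 2.501, from 4.06 to 9.32, above every oxLDL library, the highest of which stood at 2.98. The longest transcripts of Irs2 and Irs1 have 56.6% and 50.3% GC, and the part of the GC tilt in this ratio was not tested.

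Pik3r1 encodes p85α and its shorter forms, the regulatory subunits that bring the PI3K catalytic subunit to the adaptors. Its levels were 261, 125, 133, 123 and 126 CPM in Control and 221, 277, 191, 201 and 274 CPM with oxLDL. In Control, 4 libraries lay between 123 and 133 CPM and replicate 1 lay far above them, within the oxLDL range. The rise with oxLDL was 0.60 ± 0.21 (adjusted p = 0.033, edgeR), 0.88 without Control replicate 1 (adjusted p = 0.000886), and 0.29 ± 0.10 with the trend taken out (adjusted p = 0.0545). With IS the levels were 262, 234, 220.0, 136 and 233 CPM, where replicate 4 was the lowest and close to the controls. The difference of 0.50 ± 0.21 had an adjusted p of 0.144 in edgeR. It passed the threshold without Control replicate 1 (0.78, adjusted p = 0.00703) and without IS replicate 4 (0.63, adjusted p = 0.028), and missed it with the trend taken out (0.29 ± 0.10, adjusted p = 0.103).

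With oxLDL + pNaKtide Pik3r1 stood at 174, 178, 152, 99.99 and 179.9 CPM, all 5 below the lowest oxLDL library. The fall against oxLDL was -0.57 ± 0.21 (adjusted p = 0.0277, edgeR). Unlike the rise with oxLDL, it missed the threshold once the trend was taken out (-0.04 ± 0.10, adjusted p = 0.822), and it missed it too without oxLDL + pNaKtide replicate 4 (-0.44, adjusted p = 0.114, edgeR). The IS + pNaKtide libraries, at 216, 178, 220.1, 214 and 219.8 CPM, did not differ from IS beyond the spread of the libraries (-0.05 ± 0.21, adjusted p = 1).

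Akt1, the more abundant of the pair of AKT kinases among the 10, fell with oxLDL and rose when pNaKtide was added, to a level that differed from Control by 0.01 ± 0.11 (adjusted p = 0.989, edgeR). Its levels were 289.9, 371, 316, 387 and 352 CPM in Control, 277, 249.7, 289.5, 297 and 256 CPM with oxLDL and 329, 327, 299, 414 and 355 CPM with oxLDL + pNaKtide. The lowest control, replicate 1, fell within the oxLDL range, and all oxLDL + pNaKtide libraries lay above the oxLDL libraries, the closest pair at 299 and 297 CPM. The changes were -0.33 ± 0.11 with oxLDL (adjusted p = 0.0278) and 0.33 ± 0.11 when pNaKtide was added (adjusted p = 0.0149, both edgeR). Both shrank to near 0 with the trend taken out, to -0.06 ± 0.06 and 0.01 ± 0.06 (adjusted p = 0.557 and 0.941). Akt1 has the GC-richest transcript of the 10 at 59.7%. With IS the levels were 252, 268, 293, 409.7 and 308 CPM and Akt1 did not pass (-0.17 ± 0.11, adjusted p = 0.34, edgeR). It passed without IS replicate 4, the highest of them (-0.29, adjusted p = 0.0268), and without that library and Control replicate 1 together (-0.35, adjusted p = 0.00428).

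Akt2, the isoform tied to GLUT4 traffic, fell with both agents and rose when pNaKtide was added to oxLDL. Its levels were 262, 350.3, 336, 345 and 364 CPM in Control, 234, 230.4, 246, 327 and 236 CPM with IS and 229, 232, 269, 260.2 and 229 CPM with oxLDL. All 5 libraries of each treated group lay below the Control mean of 331 ± 40.1 CPM (SD, n = 5), and the groups overlapped through the low Control replicate 1 and, with IS, the high IS replicate 4. The log2 fold change with oxLDL was -0.44 ± 0.10 (adjusted p = 0.00783, edgeR), it passed the threshold in all 12 alternatives and all 10 fits without 1 library, and it was -0.29 ± 0.08 with the trend taken out (adjusted p = 0.0223). With IS it was -0.38 ± 0.10 (adjusted p = 0.0614, edgeR) and -0.27 ± 0.08 with the trend taken out (adjusted p = 0.0679). That call was less firm, since it was kept in only 2 of the 10 fits without 1 library, those without Control replicate 1 or IS replicate 4, and the adjusted p of the 10 fits ranged from 0.00183 to 0.201.

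With oxLDL + pNaKtide Akt2 stood at 345, 312, 308, 407 and 383 CPM, with every library above every oxLDL library. The rise was 0.53 ± 0.10 (adjusted p = 0.000142, edgeR) and 0.41 ± 0.08 with the trend taken out (adjusted p = 0.000229), and it passed in all 11 alternatives and all 10 fits without 1 library. The change with pNaKtide differed between cells with and without oxLDL by 0.54 ± 0.14 in the interaction test (adjusted p = 0.0247, edgeR; 24.6% of all genes were called in that test and 3 of the 10 here). With the trend taken out that difference was 0.36 ± 0.12 (adjusted p = 0.0587, where 12% of all genes passed). With IS + pNaKtide the levels were 252, 261, 263, 269 and 272 CPM, in a narrow band, and the difference from IS was 0.05 ± 0.10 (adjusted p = 1). The FPKM ratio of Akt1 over Akt2 was 1.81 ± 0.141 in Control, 2.08 ± 0.15 with IS, 1.96 ± 0.0961 with oxLDL and 1.71 ± 0.0844 with oxLDL + pNaKtide, where the lowest oxLDL library stood at 1.87 and the highest oxLDL + pNaKtide library at 1.82. The part of the GC tilt in this ratio was not tested.

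Foxo1, the transcription factor that AKT holds inactive, did not pass the threshold in any comparison as counted. Its levels were 58.4, 50.6, 47.9, 52.4 and 45.96 CPM in Control, 54.1, 56.5, 46.8, 47.9 and 52.7 CPM with oxLDL and 58.03, 59.7, 47.4, 50.8 and 71.7 CPM with oxLDL + pNaKtide. The last group was the widest, from the level of the lowest oxLDL libraries to the highest value of all 30. The log2 fold changes were 0.02 ± 0.10 with oxLDL, 0.01 ± 0.10 with IS and 0.16 ± 0.10 for oxLDL + pNaKtide against oxLDL (adjusted p = 0.924, 0.954 and 0.216, edgeR). With the trend taken out, the last of these became 0.51 ± 0.08 with an adjusted p of 6.5e-06, which was the smallest of the 10 genes in that fit, and the interaction of pNaKtide with oxLDL became 0.47 ± 0.11 (adjusted p = 0.0138). As counted, the median of genes of like GC content (48% to 50%) for oxLDL + pNaKtide against oxLDL was -0.05. The trend also covers length, and the longest transcript of Foxo1 has 8665 bases. The part of length in the larger value was not tested. The call for oxLDL + pNaKtide against oxLDL was also made without oxLDL + pNaKtide replicate 3 (0.22, adjusted p = 0.0744, edgeR), and with scaling by library size only the direction turned (-0.07). The exons of Foxo1 share 674 bases with Gm20402 on the opposite strand, which had 0 counts in every library.

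Slc2a4, which encodes the insulin-responsive transporter GLUT4, rose when pNaKtide was added to oxLDL. Its levels were 35.04, 41.8, 49.9, 42.3 and 48.04 CPM in Control, 37.3, 37.03, 38.9, 43.6 and 34.2 CPM with oxLDL and 50.4, 47.1, 50.02, 50.99 and 56.99 CPM with oxLDL + pNaKtide. Every oxLDL + pNaKtide library lay above every oxLDL library. The rise was 0.42 ± 0.10 (adjusted p = 0.00118, edgeR) and 0.24 ± 0.09 with the trend taken out (adjusted p = 0.0418), and it passed in all 11 alternatives and all 10 fits without 1 library. The interaction with oxLDL was 0.42 ± 0.14 (adjusted p = 0.0481, edgeR), but 0.20 ± 0.13 with the trend taken out (adjusted p = 0.364). Neither agent alone lowered Slc2a4 past the threshold, at -0.18 ± 0.10 for oxLDL and -0.20 ± 0.10 for IS (38.2, 41.02, 35.97, 41.1 and 32.1 CPM; adjusted p = 0.172 and 0.198, edgeR). Slc2a4 passed with oxLDL without oxLDL replicate 4 and with IS without IS replicate 4. Without Control replicate 1 both passed, at -0.25 and -0.27 (adjusted p = 0.0417 and 0.0424), while with the trend taken out they were -0.01 ± 0.09 and -0.08 ± 0.09 and missed it. Compared with Control, oxLDL + pNaKtide was 0.24 ± 0.10 (adjusted p = 0.21, edgeR), with 5 of 5 libraries above the Control mean.

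Slc2a1, which encodes the basal transporter GLUT1, fell with both agents, and the IS change was the largest fall of the 10 genes in that comparison. Its levels were 101, 169, 159.6, 171 and 181 CPM in Control, 109, 106, 96.2, 113 and 108 CPM with IS and 128, 108, 108, 148 and 106 CPM with oxLDL. Of the controls, 4 lay above every IS and oxLDL library, and replicate 1, at 101 CPM, lay within the IS range and below every oxLDL library. The change with IS was -0.55 ± 0.11 (adjusted p = 0.0194, edgeR), 0.681 of the Control level, and -0.44 ± 0.09 with the trend taken out (adjusted p = 0.00857). It passed in 9 of the 10 fits without 1 library, the exception being that without Control replicate 5 (adjusted p = 0.105). The change with oxLDL was -0.39 ± 0.11 (adjusted p = 0.0136, edgeR) and -0.22 ± 0.09 with the trend taken out (adjusted p = 0.0949), and it passed in all 12 alternatives and all 10 fits without 1 library. IS and oxLDL did not differ past the threshold (0.17 ± 0.11, adjusted p = 0.856, edgeR).

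Slc2a1 was also compared with and without pNaKtide in the treated cells. With IS + pNaKtide the levels were 148, 152, 122, 123 and 132 CPM, so that every library lay above every IS library. Over all genes tested, 0.834% had groups without overlap in this comparison, in either direction. The log2 fold change was 0.35 ± 0.11 with an unadjusted p of 0.00346 in edgeR, and it did not pass after adjustment over all genes (adjusted p = 1; with the trend taken out 0.32 ± 0.09, adjusted p = 0.485). With oxLDL + pNaKtide the levels were 133, 144, 147, 145 and 133 CPM and overlapped the oxLDL group, whose replicate 4 stood at 148 CPM. The rise of 0.23 ± 0.11 had an adjusted p of 0.0953 in edgeR, at the edge of the threshold. It passed in 4 of the 10 fits without 1 library, and was 0.08 ± 0.09 with the trend taken out (adjusted p = 0.544). pNaKtide alone gave 154, 151, 137, 138 and 141 CPM, all below the Control mean of 156 ± 31.6 CPM (SD, n = 5), at -0.12 ± 0.11 (adjusted p = 0.953, edgeR).

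Pde3b, whose product degrades cAMP under insulin, was the least abundant of the 10, with 79 to 476 counts in a library. Its levels were 30.2, 17.7, 21.5, 14.8 and 19.96 CPM in Control, 32.04, 32.4, 25.3, 27.96 and 32.1 CPM with oxLDL and 22.7, 26.4, 22.8, 13.1 and 21.9 CPM with oxLDL + pNaKtide. Control replicate 1 lay within the oxLDL range and the other 4 controls lay below it, and of the oxLDL + pNaKtide libraries replicate 4 was the lowest of all 30. The rise with oxLDL was 0.53 ± 0.16 (adjusted p = 0.016) and the fall on adding pNaKtide was -0.48 ± 0.16 (adjusted p = 0.0142, both edgeR). Neither passed with the trend taken out, at 0.15 ± 0.08 and 0.10 ± 0.08, the second with its direction turned (adjusted p = 0.191 and 0.371). Pde3b has the GC-poorest transcript of the 10 at 43.95%. The interaction of pNaKtide with oxLDL was -0.56 ± 0.22 (adjusted p = 0.0826, edgeR) and -0.09 ± 0.11 with the trend taken out. With IS the levels were 27.9, 25.9, 22.8, 17.00 and 22.2 CPM and Pde3b did not pass (0.15 ± 0.16, adjusted p = 0.556, edgeR). It passed without Control replicate 1 and IS replicate 4 together (0.42, adjusted p = 0.0178), and in 0 of the 10 fits without 1 library.

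**Figure D3:**
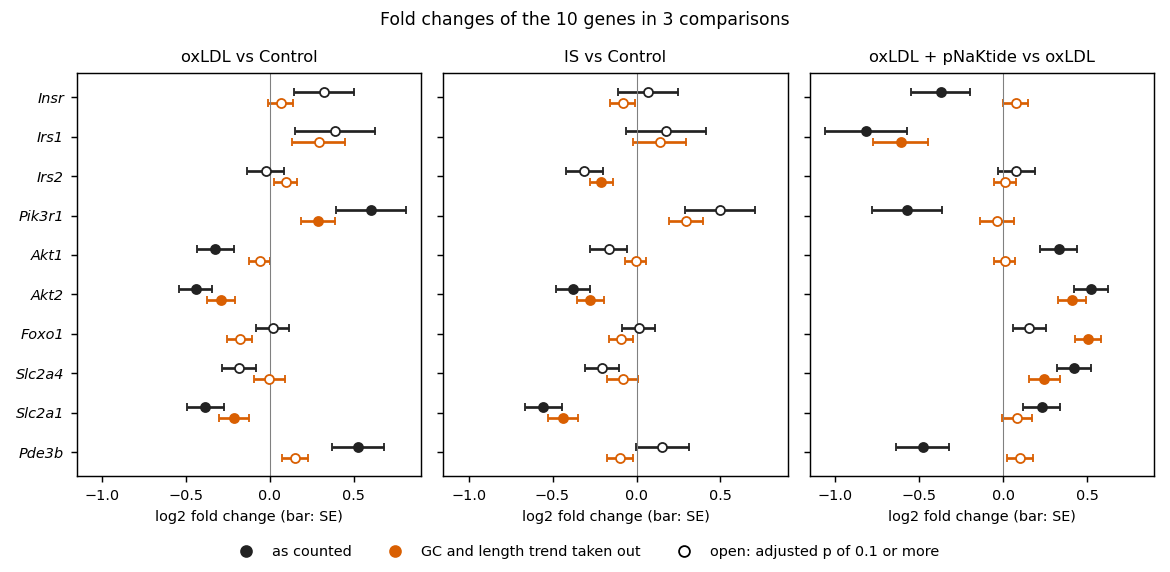
Log2 fold changes of the 10 genes with their SE in 3 comparisons, as counted (black) and with the GC and length trend taken out (orange), filled where the adjusted p was under 0.1 and open otherwise. Akt2 and Slc2a1 are filled in both colours with oxLDL and with IS, while Akt1 and Pde3b with oxLDL are filled in black only.

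With oxLDL, the direction of the changes followed the GC content of the transcripts among the called genes of the 10 and in the table as a whole. The genes that were higher with oxLDL, Pik3r1 and Pde3b, have longest transcripts of 44.9% and 43.95% GC and 7113 and 6573 bases, whereas Akt1, Akt2 and Slc2a1, which were lower, have 59.7%, 55.2% and 54.02% GC and 2690, 4544 and 3260 bases (GENCODE models on GRCm38). Shares by GC content were taken among genes with a positive mean log2 CPM. Of the 3482 such genes with less than 45% GC, 64.2% were called higher and 1.72% lower with oxLDL. Of the 2896 with more than 55% GC the shares were 1.55% and 52.6%. When each gene was set beside the median of those genes of like GC content (bins of 2 percentage points), Akt1 with oxLDL at -0.33 lay beside a median of -0.31, and Pde3b at 0.53 beside 0.36. Pik3r1 at 0.60 lay beside 0.24, Akt2 at -0.44 beside -0.25, and Slc2a1 with IS at -0.55 beside -0.18. The gene farthest from the genes of its own GC content was Irs1, which has 50.3% GC and fell to -0.82 with oxLDL + pNaKtide against oxLDL, where the median of its bin was 0.09. After the trend had been taken out, 3 of the 10 genes were called with oxLDL (20.8% of all genes), 3 with IS (5.19%) and 4 with oxLDL + pNaKtide against oxLDL (36.5%).

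**Figure D4:**
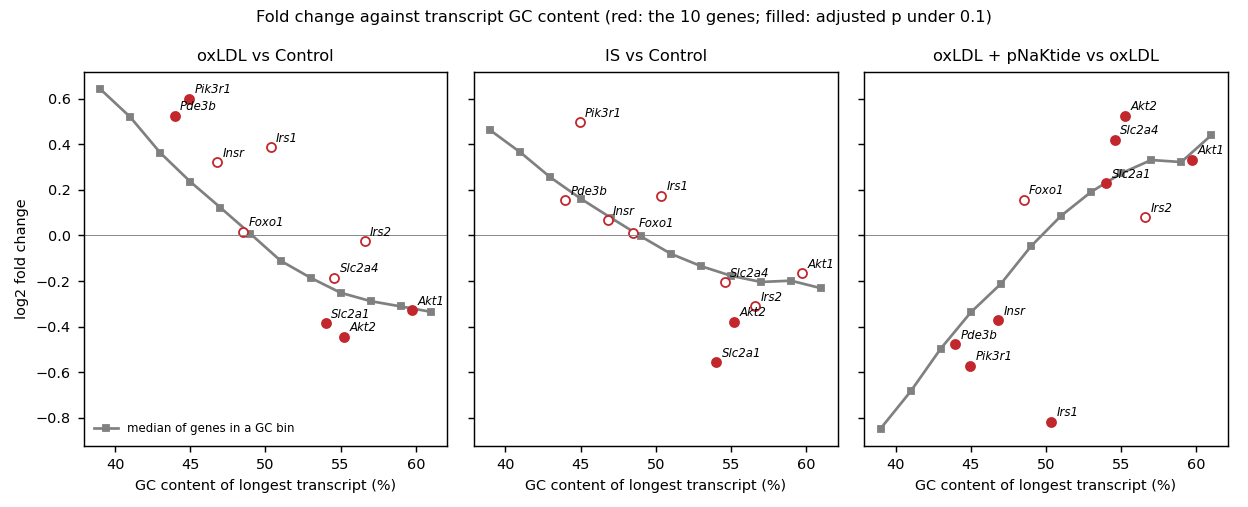
Log2 fold change against the GC content of the longest transcript for the 10 genes (red, filled where the adjusted p was under 0.1), in 3 comparisons. The median of each GC bin over genes with a positive mean log2 CPM is in grey. The grey line falls from 0.64 to -0.33 with oxLDL and rises from -0.85 to 0.44 with oxLDL + pNaKtide against oxLDL. Akt1 lies close to it in both, and Irs1 lies far below it in the last panel.

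Against Control, oxLDL + pNaKtide left 0 of the 10 genes past the threshold (5.2% of all genes called), and the unadjusted p was under 0.05 for Slc2a4 alone. With the trend taken out 2 of the 10 passed, Foxo1 at 0.33 ± 0.08 and Pde3b at 0.25 ± 0.08 (9.48% of all genes, edgeR). IS + pNaKtide against Control also left 0 of 10 (0.358% of all genes called), with an unadjusted p under 0.05 for Akt2, Pik3r1 and Pde3b, at -0.33 ± 0.10, 0.45 ± 0.21 and 0.33 ± 0.16 (adjusted p = 0.147, 0.233 and 0.234, edgeR). Without Control replicate 1, 4 of the 10 passed in that comparison, namely Pik3r1, Akt2, Slc2a1 and Pde3b, where 26.7% of all genes were called. No gene of the 10 differed past the threshold between oxLDL and IS (0.0149% of all genes called). The interaction of pNaKtide with IS called 0 of the 10 and 0 of all 20139 genes in edgeR (619, or 3.07%, at an unadjusted p under 0.05) and 0 in DESeq2, and its largest value was for Slc2a1, at 0.47 ± 0.16 (unadjusted p = 0.00534). Over the 6 groups together, 8 of the 10 genes differed (45.1% of all genes), and the exceptions were Insr and Foxo1 (adjusted p = 0.381 and 0.494, edgeR).

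The wider pathway moved in both directions. Of 80 further genes of insulin signalling and glucose transport, which include 8 of cAMP and lipolysis listed with Pde3b, 77 were tested. With oxLDL 20 of them rose and 21 fell, with IS 3 rose and 8 fell, and with oxLDL + pNaKtide against oxLDL 24 rose and 28 fell, while pNaKtide alone and pNaKtide added to IS changed 0 in edgeR. Over all genes tested, 18.1% rose and 18% fell with oxLDL, 4.45% and 3.49% with IS, and 22.1% and 26.1% with oxLDL + pNaKtide against oxLDL. The medians of the 77 were 0.05, 0.03 and -0.15 in the first 3 comparisons, where those of all genes were 0.04, 0.03 and -0.09. With the trend taken out the counts were 9 and 15 with oxLDL, 2 and 6 with IS, and 27 and 19 with oxLDL + pNaKtide against oxLDL. Over all genes, 1649 rose and 2541 fell in that fit with oxLDL, 459 and 587 with IS, and 4021 and 3339 with oxLDL + pNaKtide against oxLDL, out of 20139.

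Genes of this list with the smallest adjusted p were as follows. Trib3, a pseudokinase that binds AKT, fell with oxLDL (-0.53 ± 0.11, adjusted p = 0.00736) and with IS (-0.67 ± 0.11, adjusted p = 0.00768, edgeR), and both falls passed with the trend taken out (-0.26 and -0.49). Adding pNaKtide to IS gave Trib3 a difference of 0.44 ± 0.11 that missed the threshold as counted (adjusted p = 0.573, edgeR) and passed with the trend taken out (0.41, adjusted p = 0.0404). Myo1c, a motor of GLUT4 vesicles, fell with oxLDL (-0.48 ± 0.11, adjusted p = 0.00783, edgeR), and Gys1, the muscle-type glycogen synthase, fell with IS (-0.42 ± 0.11, adjusted p = 0.0573). Among those that rose were Prkar2b, a regulatory subunit of the cAMP-dependent kinase (0.51 ± 0.13), and Stxbp3, a Munc18 protein of GLUT4 vesicle fusion (0.67 ± 0.17), with oxLDL, and Pik3cb (0.39 ± 0.12) and Rheb (0.36 ± 0.12), a catalytic subunit of PI3K and the activator of mTORC1, with IS. Of these 4 rises, that of Prkar2b passed with the trend taken out and the other three did not. When pNaKtide was added to oxLDL, Sh2b2, an adaptor of the receptor (0.66 ± 0.10, adjusted p = 1.38e-05), and Pnpla2, the lipase that starts lipolysis (0.77 ± 0.12, adjusted p = 2.33e-05), rose, and Stxbp3 (-1.14 ± 0.18, adjusted p = 2.32e-05) fell, all 3 also with the trend taken out (edgeR).

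Across the 30 libraries the 10 genes fell into sets that varied together. Pearson's r of log2 CPM was 0.88 between Insr and Pik3r1, 0.85 between Insr and Irs1, 0.86 between Insr and Pde3b and 0.85 between Akt1 and Akt2, and it was -0.86 between Pik3r1 and Akt2 and -0.88 between Akt1 and Pde3b. These values describe libraries that share their groups and their GC tilt. Foxo1 was nearest to Irs2 at 0.67, and Slc2a4 was nearer to Akt2 (0.74) than to Slc2a1 (0.53). Among 12580 genes searched, the gene whose profile was most like that of Slc2a1 was Trib3 (r = 0.94), followed by Chac1 (0.90). For Akt2 the nearest were Tmem109 and Ppp2r5d (both 0.98), for Slc2a4 Tmem120b (0.89) and Gyg (0.88), for Foxo1 Fam193a (0.87) and Prrc2b (0.81), and for Irs2 Col6a3 (0.91) and Hspg2 (0.89). The nearest genes were Tmem245 and Lnpep (both 0.97) for Insr, Aff1 and Gm38394 (both 0.97) for Irs1, Mib1 and Firre (both 0.97) for Pik3r1, Cnpy3 and Pcolce (both 0.97) for Akt1, and Arfgef1 and Dyrk2 (both 0.93) for Pde3b.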

How the data were processed

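RNA was sequenced from 30 libraries of 3T3-L1 cells in 6 groups of 5, and groups were taken from the labels. The deposited raw counts per gene were made by the authors with Trimmomatic 0.38, HISAT2 2.1.0 on GRCm38 and a Bioconductor counter, and the deposited FPKM values were scaled by the authors with 1 factor per library. Neither the annotation release nor the strand setting is given in the labels or methods used here. The deposited table of normalized counts was not used, and 0 columns were without a sample.

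Counts of 20139 genes with more than 14 counts over all libraries were fitted in 1 model of the 6 groups by edgeR 4.0.16 in R 4.3.3 (TMM factors, robust quasi-likelihood test, Benjamini-Hochberg adjustment, threshold 0.1). The biological coefficient of variation was 14.0%. The SE of a log2 fold change was derived from the test, as its absolute value divided by the square root of the quasi-likelihood F statistic. FPKM values served for levels between genes and, in limma 3.58.1 with a pseudocount of 1 or 0.1, as an alternative. DESeq2 1.42.0 was another, beside other scalings, count filters, a replicate block, the compared groups alone and each library left out. The GC and length trend was fitted per library with mgcv 1.9.3 over genes with a positive mean log2 CPM. It was then predicted for all 20107 genes with a known GC content and entered as an offset. Scripts were tested on simulated data. No pair of libraries within a group agreed within sampling noise (lowest chi-square per degree of freedom 1.30 over 60 pairs), so all were counted. Some pairs were much closer than others of their group, namely IS + pNaKtide replicates 3 and 4 (1.30), pNaKtide replicates 1 and 2 (1.36) and 4 and 5 (1.40), Control replicates 2 and 4 (1.82), IS replicates 1 and 2 (2.01) and 2 and 3 (2.86) and oxLDL replicates 2 and 5 (2.30), against 14.5 to 18.6 for the other pNaKtide pairs and up to 57.1 with IS. Whether the libraries of such a pair share a culture is unknown.

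The members, the wider list and the markers were chosen with earlier results of these data known. From the wider list, at most 2 genes per direction with the smallest adjusted p were named (1 gene is not reported here), and for each of the 10 genes the 2 most correlated ones among genes whose mean log2 CPM reached 1. Promoters came from RefSeq. Figures were drawn with matplotlib 3.10.9.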

Additional observations from a re-analysis of the deposited data

Results flagged for a closer look

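In groups of 5 libraries, a single library was taken as standing apart when its gap to the nearest other library exceeded 0.71 of the range of the group (Dixon's criterion). This held for 8 of the 60 combinations of gene and group, where chance alone gives about 5%.

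Control replicate 1 stood apart for 4 genes. Irs1 was at 70.6 CPM there and between 38.3 and 45.3 CPM in the other controls, and Pik3r1 was at 261 CPM against 123 to 133 CPM. Akt2 was at 262 CPM against 336 to 364 CPM, and Slc2a1 was at 101 CPM against 159.6 to 181 CPM. The same library had a GC tilt of -0.32, and the part of the tilt in these values was not tested.

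In IS replicate 4, Akt2 was at 327 CPM against 230.4 to 246 CPM in the other IS libraries, and the GC tilt there was 0.45. In IS + pNaKtide replicate 2, Insr was at 67.0 CPM against 88.0 to 92.9 CPM, and Pik3r1 was at 178 CPM against 214 to 220.1 CPM. In pNaKtide replicate 3, Akt1 was at 288 CPM against 347 to 368 CPM.

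The change with pNaKtide differed with and without oxLDL in the interaction test for 3 of the 10 genes, where 24.6% of all genes tested were called, at 0.54 for Akt2, 0.42 for Slc2a4 and -0.56 for Pde3b as log2 values (adjusted p = 0.0247, 0.0481 and 0.0826, edgeR's quasi-likelihood test with Benjamini-Hochberg adjustment). With the GC and length trend taken out, that of Akt2 passed and those of Slc2a4 and Pde3b did not.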

How the results depend on the processing

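Counts of called genes among the 10 moved as follows. With the GC and length trend taken out, 3 were called with oxLDL in place of 5 (20.8% of all genes in place of 36%). With oxLDL + pNaKtide against oxLDL 4 were called in place of 8 (36.5% in place of 48.3%), and Insr at 0.075 and Pde3b at 0.10 turned in direction. In the same fit 2 were called with oxLDL + pNaKtide against Control (9.48% in place of 5.2%) and 1 between oxLDL and IS (0.109% in place of 0.0149%), both in place of 0. With IS the 2 calls (7.94% of all genes) became 4 with DESeq2 (15.7%), 1 at an adjusted p of 0.05 (0.646%) and 0 when only those groups were fitted (0%). Without Control replicate 1 and IS replicate 4 together, calls against Control numbered 8 with oxLDL (47.6% of all genes), 8 with IS (45.4%), 1 with oxLDL + pNaKtide (6.39%) and 5 with IS + pNaKtide (32.4%), and 8 in the oxLDL interaction (40%). That interaction, with 24.6% of all genes called, gave 5 in place of 3 with DESeq2 (29.2%) or with more than 14 counts required in every library (46.4%), 6 with limma on log2(FPKM + 1) (43.1%) or log2(FPKM + 0.1) (42.9%), and 2 with library size only (26.2%), with at least 1 count over all libraries (12.5%), at an adjusted p of 0.05 (13.4%), with only the groups compared (21.7%) and with the trend taken out (12%). DESeq2, the 14-count requirement and both limma fits each gave 1 call of 10, Slc2a4, with oxLDL + pNaKtide against Control, where 9.05%, 14.4%, 12% and 12.2% of all genes were called. With IS + pNaKtide against Control, 1 call, Akt2, was made with DESeq2 (7.38% of all genes), with the 14-count requirement (2.7%) and when only those groups were fitted (5.72%). The test over all 6 groups called 5 in place of 8 with scaling by library size only, while the share of all genes went from 45.1% to 49.3%. The cause was not tested in any of these.

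Leaving out 1 library at a time gave 5 to 8 calls with oxLDL, 0 to 6 with IS, 5 to 8 with oxLDL + pNaKtide against oxLDL, 0 to 4 with IS + pNaKtide against Control and 2 to 8 in the oxLDL interaction. The shares of all genes called ranged, in the same order, over 24.7% to 45.9%, 0.0745% to 34.5%, 41.4% to 48.7%, 0.00993% to 26.7% and 10.5% to 37.3%. The highest counts with oxLDL, with IS + pNaKtide and in the interaction came without Control replicate 1, and that with IS came without IS replicate 4. With oxLDL + pNaKtide against oxLDL, 5 came without oxLDL + pNaKtide replicate 4, and 8 without its replicate 5 or oxLDL replicate 4.

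Replicate numbers were not used in the main fit. Of 40 pairs of same-numbered libraries, 23 had a correlation of their deviations above 0.1, and in 0 of 8 comparisons did all pairs. Replicate 4 correlated at 0.80 between IS and Control and at 0.75 between oxLDL and IS, but at -0.38 between IS + pNaKtide and Control. Whether libraries of the same number shared a batch was not tested. With the replicate block, 1 gene, Akt2, was called with IS + pNaKtide against Control in place of 0 (6.64% of all genes in place of 0.358%), 3 with IS in place of 2 (Irs2 gained, 17% in place of 7.94%) and 4 in the oxLDL interaction in place of 3 (Akt1 gained, 29.8% in place of 24.6%).

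Over all genes, IS calls numbered 1599, against 3160 with DESeq2, 3423 with the replicate block, 2541 with library size only, 2424 with more than 14 counts in every library and 9140 without the pair of libraries. They numbered 1046 with the trend taken out, 546 with at least 1 count over all libraries, 130 at an adjusted p of 0.05 and 0 with only those groups fitted in edgeR (3465 at an unadjusted p under 0.05). Leaving out 1 library gave 6694 without Control replicate 1, 6952 without IS replicate 4 and 15 to 305 without any other. Scaling by library size only shifted the median over all genes (log2 fold change) from 0.04 to 0.17 with oxLDL, and the split of calls from 3637 higher and 3622 lower to 4963 and 2276. With oxLDL + pNaKtide against oxLDL the median moved from -0.09 to -0.30 and the split from 4458 and 5264 to 2696 and 7680. Among the 10 genes, 2 were called higher and 4 lower in that fit (51.5% of all genes), and Akt1 and Slc2a1 were no longer called. The lowest counts of the 10 genes in 1 library were 79 for Pde3b and 104 for Irs1, both in oxLDL + pNaKtide replicate 4, the shallowest.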
